A study of Mus musculus with 18 samples.

Results

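Small extracellular vesicles (sEVs) released by primary mouse microglia were set against the microglia themselves. The comparison takes every library the labels give as microglia sEVs (n = 3) and as microglia cells (n = 3), 6 of the 18 libraries of the series. The other 12 hold astrocyte and neuron cells and their sEVs, 3 libraries in each group. They entered the same fit, where they shape the filter on low counts, the scaling and the estimate of the spread. They also serve to ask whether a difference was particular to microglia. RNA was read as full-length cDNA by PacBio long-read sequencing, so that each read reports which introns were removed from its transcript. The series set out to ask whether cells of different types pack mRNA into sEVs differently. Both microglia groups are labelled as primary cultures from brain, and the labels give no genotype, strain, age, stimulus or purity, nor do they say whether the 3 libraries of a group came from separate cultures. P-values therefore measure only the spread between these libraries. RNA came from a Micro version of the extraction kit for sEVs and a Mini version for cells, both with DNase treatment. Cell libraries shared 1 sequencing pool and sEV libraries another, each run on 2 SMRT cells, so fraction, kit and pool cannot be told apart.

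Microglia are the resident macrophages of the brain, and they engulf debris, digest it in lysosomes, present antigen and secrete cytokines. Small EVs are membrane-bound particles that leave the cell from endosomes or the plasma membrane and carry protein and RNA. Messenger RNAs for membrane, lysosomal and secreted proteins are translated at the surface of the endoplasmic reticulum (ER), whereas those for ribosomal, cytoskeletal and most mitochondrial proteins are translated in the cytosol, and incompletely spliced transcripts are mostly held in the nucleus.

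The microglia sEV libraries held 479397, 527292 and 651943 reads, and the microglia cell libraries 434298, 521851 and 683381. Reads fell on 5369, 6395 and 7036 gene labels in sEVs and on 6445, 6762 and 7430 in cells. Among the 17714 gene labels of the series 10144 had reads in these 6 libraries, as had 35860 of 114425 isoforms. Library profiles correlated at 0.836 to 0.870 between sEV libraries and at 0.930 to 0.938 between cell libraries, so the sEV libraries scattered more. The smallest count above 0 in the table was 2, and a count of 0 can hide single reads. Reads carry no molecular identifiers, so a limit on a count covers counting error only.

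Of 8184 genes tested with edgeR's quasi-likelihood test, 217 were higher (2.65%) and 753 lower (9.2%) in microglia sEVs than in microglia cells at an adjusted p under 0.05. These 2 percentages are the background for every count of a gene list below. They include 1174 genes with no reads in the 6 microglia libraries, which passed the filter through the other cultures and make both percentages smaller. Some genes belong to more than 1 list, so the list counts are not independent of each other. Among the 3638 tested genes with reads in all 6 libraries, 163 were called higher and 391 lower. A fit of the 6 microglia libraries alone tested 3983 genes and called 415 higher and 606 lower. The median log2 difference was -3.31 among the genes called lower and 1.64 among those called higher, and 430 genes were over 8-fold lower against 55 over 8-fold higher. No read was seen in any sEV library for 191 of the lower genes, and none in any cell library for 32 of the higher ones. Levels are CPM, counts per 1000000 reads of library sizes scaled by edgeR's trimmed mean of M-values (TMM), and differences are log2 of sEVs over cells. The scaling matters here: over the 3638 tested genes with reads in all 6 libraries the median log2 difference was -0.02 with TMM and 0.56 without it, and without it 687 genes were called higher and 519 lower. Changes are therefore relative to the bulk of genes. Refits without microglia cell replicates 1, 2 and 3 called 100, 79 and 104 genes higher, of which 94, 70 and 83 were among the 217, and the refit without sEV replicate 2 called 129, of which 119 were. Without cell replicate 3 the lower calls numbered 488, of which 478 were among the 753. In every refit without 1 library the filter on low counts passed more genes, 8941 to 9084 against 8184. Changes in these counts therefore mix the lost library with a wider set of tested genes, and the 2 were not told apart.

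Genes of the lysosome were lower in sEVs almost throughout. Of 46 listed genes for lysosomal enzymes and membrane proteins 43 were tested, and 35 were lower, none higher and 8 not called. All 43 had a negative log2 difference, with a median of -3.26 against 0 over all tested genes. Together the listed genes made up 1.84% ± 0.463 of the reads of sEV libraries and 10.0% ± 0.303 of those of cell libraries (SD, n = 3 each). Without sEV replicate 2 the lower calls numbered 26, the smallest count when 1 library was left out.

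Ctsd encodes cathepsin D, an aspartic protease of the lysosome. It stood at 1289, 770.2 and 1058 CPM in the sEV libraries, against 17109, 18646 and 18057 CPM in the cell libraries. The difference was -4.11 ± 0.33 (log2, SE; edgeR adjusted p = 1.86e-06), and each sEV library was more than 10-fold under every cell library. Psap, the precursor of the saposins that help to degrade sphingolipids, had 259, 451 and 561 CPM in sEVs, against 12162, 13665 and 13616 CPM in cells. This was a log2 difference of -4.95 ± 0.44 (edgeR adjusted p = 3.53e-06), with no overlap. Ctsb, which encodes the cysteine protease cathepsin B and took the largest share of reads in every cell library, had 5191, 2952 and 4754 CPM in sEVs, against 42436, 47412 and 50380.3 CPM in cells (-3.44 ± 0.36, edgeR adjusted p = 1.21e-05). Its sEV values also lay far under the cell values, and sEV replicate 2 was the lowest. Lgmn, the asparaginyl endopeptidase legumain, averaged 1105 ± 139 CPM in sEVs and 11330.1 ± 1452 CPM in cells (-3.36 ± 0.47, edgeR adjusted p = 2.01e-04). Grn, which encodes progranulin, had 101, 113 and 80.4 CPM in sEVs, against 2574, 2822 and 2990.5 CPM in cells. Plbd2, a lysosomal phospholipase B-like protein, had no reads in the 3 sEV libraries and 69, 65 and 85 reads in the cell libraries, which makes it at least 37.1-fold lower against a floor of 3 reads per sEV library. The smallest fall with a call was that of Fuca1, a fucosidase, with a log2 difference of -1.17, and it was lost without any 1 of cell replicates 2 and 3 and sEV replicates 1 and 2.

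Promoter sequence is shown for this group because its genes moved together. TCACGTG, searched on both strands over 250 bases before and 50 after each annotated start, is the core of the element bound by TFEB, a transcription factor of lysosomal genes. It was found in 8 of the 25 lysosomal genes called lower that had a promoter in the RefSeq table (32%), in 24.2% of the 33 lysosomal genes with a promoter, in 7.03% of other genes called lower and in 7.51% of all 6524 tested genes with one. The match is a description of these letters. Examples follow as 30-base windows from RefSeq (build GRCm38.p6), 5′ to 3′ on the strand of the gene, with the motif in capitals. The promoters lie at chr2:164833523-164833822 (+, Ctsa), chr9:114400828-114401127 (+, Glb1), chr12:102439043-102439342 (-, Lgmn), chr8:13158911-13159210 (+, Lamp1) and chr11:119267713-119268012 (+, Gaa).
Ctsa: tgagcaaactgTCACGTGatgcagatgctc
Glb1: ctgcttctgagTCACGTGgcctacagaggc
Lgmn: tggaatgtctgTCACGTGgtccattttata
Lamp1: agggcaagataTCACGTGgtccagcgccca
Gaa: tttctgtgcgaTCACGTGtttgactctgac
Beside these sequences, the log2 differences of sEVs over cells were -4.17 for Ctsa (protective protein cathepsin A), -5.09 for Glb1 (beta-galactosidase), -3.36 for Lgmn, -2.53 for Lamp1 (a major lysosomal membrane glycoprotein) and -4.27 for Gaa (acid alpha-glucosidase).

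Genes of the ER itself were lower as well. Of 19 tested ER chaperones and disulphide isomerases 14 were lower and none higher, with all 19 differences negative and a median of -2.76. Of 30 tested genes for translocation, glycosylation and ER membrane proteins 21 were lower and none higher, with a median of -2.08. Hspa5, which encodes the ER chaperone BiP, had 541, 441 and 802 CPM in sEVs, against 6873, 8481 and 9247 CPM in cells. The log2 difference was -3.78 ± 0.31 (edgeR adjusted p = 1.86e-06). Pdia6, a protein disulphide isomerase, had 95.7, 69.5 and 107 CPM in sEVs, against 815, 1007 and 1033 CPM in cells, and had the smallest adjusted p among the lower genes named by rule (8.35e-07, edgeR; log2 -3.38 ± 0.25). Pdia3, another disulphide isomerase, had 189, 202 and 221 CPM in sEVs, against 2066, 2434 and 2703 CPM in cells. Groups did not overlap for any of these 3 genes. Outside these lists, Ncstn, a membrane subunit of gamma-secretase, averaged 31.2 ± 15.1 CPM in sEVs and 491 ± 78.2 CPM in cells (-3.96 ± 0.36, edgeR adjusted p = 3.59e-06). Sec61a1, the pore subunit of the ER translocon, had 0 reads in sEVs and 53, 49 and 77 reads in cells, at least 29.97-fold lower. Rpn1, a subunit of oligosaccharyltransferase, had 43, 0 and 8 reads in sEVs and 120, 178 and 240 reads in cells, and the spread among sEVs was wide. By contrast in function, the signal recognition particle is a cytosolic RNA and protein complex that delivers ribosomes to the ER. Among its 6 tested genes 1 was higher, Srp14 (209.7, 165 and 193 CPM in sEVs, against 84.7, 83.9 and 105 CPM in cells; log2 1.05 ± 0.27, edgeR adjusted p = 0.0153), none was lower and all 6 differences were positive. The Srp14 call was lost without cell replicates 1 or 2.

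**Figure D1:**
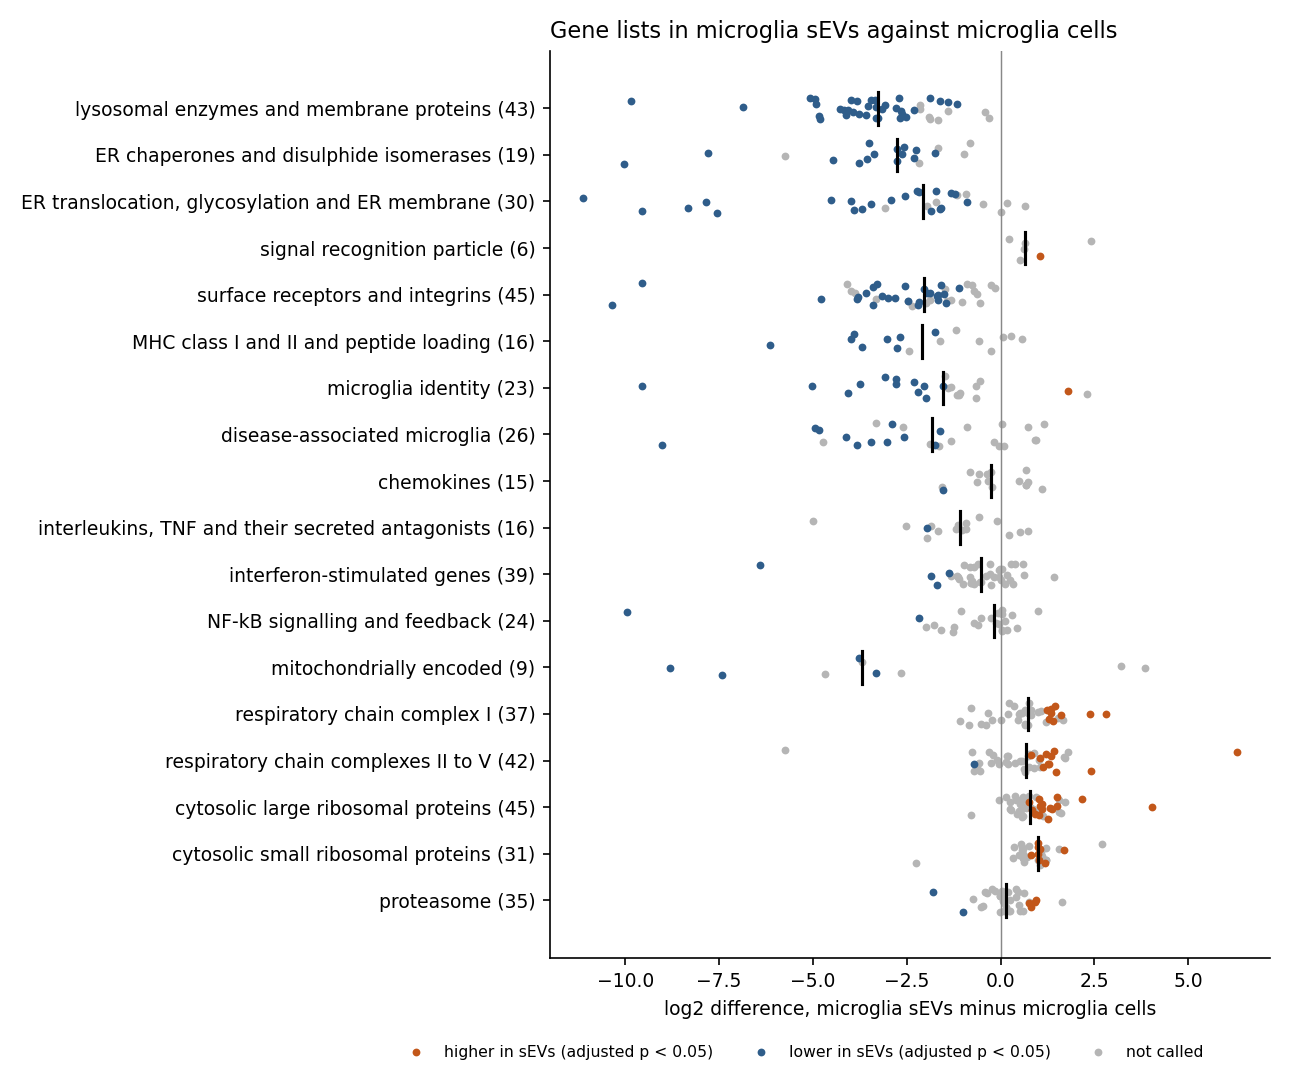
Log2 differences of microglia sEVs minus microglia cells (horizontal axis) for the tested members of 18 gene lists (rows, with the number tested). Each point is 1 gene, coloured by its edgeR call, and the black bar is the list's median. Lysosomal and ER lists lie left of 0 with medians of -3.26, -2.76 and -2.08, and the ribosomal protein lists lie right of it with medians of 0.78 and 0.99.

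Genes for surface proteins had calls in the lower direction and none in the other. Of 53 listed receptors and integrins 45 were tested, 26 were lower and none was higher, and all 45 differences were negative (median -2.04). Without TMM 17 were lower. Itgam, the CD11b integrin chain that marks microglia and other myeloid cells, had no reads in sEVs and 41, 51 and 92 reads in cells, at least 30.1-fold lower. Itgb2, its CD18 partner, had 9.20, 37.7 and 105 CPM in sEVs, against 1343, 1358 and 1547 CPM in cells (log2 -4.78 ± 0.69, edgeR adjusted p = 0.00223). Cd14, a co-receptor for bacterial lipopolysaccharide, had 2367, 2513 and 3021 CPM in sEVs, against 10327, 13404 and 12803 CPM in cells (-2.21 ± 0.56, edgeR adjusted p = 0.0174). All 3 genes were lower in every sEV library, but the Cd14 call was lost without TMM and without any 1 of cell replicates 2 and 3 and sEV replicates 1 and 2. Cd83, a surface protein of activated antigen-presenting cells, averaged 2908 ± 930.1 CPM in sEVs and 9824 ± 1744 CPM in cells (-1.76, edgeR adjusted p = 0.0327) and lost its call in those fits and without cell replicate 1. In the list of MHC class I and II and peptide loading 8 of 16 tested genes were lower and none higher (median -2.10). H2-D1, a classical class I heavy chain, had 1041, 703 and 948 CPM in sEVs, against 11771, 12559 and 10763 CPM in cells. This is a log2 difference of -3.70 ± 0.33 (edgeR adjusted p = 3.59e-06), though reads of H2-D1 and its near-identical neighbours may be split between labels. B2m, the class I light chain, differed less, with 1757, 1207 and 1261 CPM in sEVs and 4852, 5106 and 4299 CPM in cells (-1.75, edgeR adjusted p = 0.00232).

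Microglial identity genes were read in the sEVs, at a lower summed level than in cells. Of 30 listed genes 23 were tested, 12 were lower and 1 higher, and their reads summed to 13808 to 20248 RPM (reads per 1000000 of the library, without TMM) in sEV libraries and 34048 to 39828 RPM in cell libraries. Cx3cr1 and P2ry12, markers of homeostatic microglia, did not pass the filter on low counts. Csf1r, the receptor for colony-stimulating factor 1, had 19, 0 and 2 reads in sEVs, against 118, 153 and 187 reads in cells (log2 -5.02 ± 0.98, edgeR adjusted p = 0.00662). Trem2, a lipid-sensing receptor, had 519, 316 and 338 CPM in sEVs, against 1597, 1705 and 1544 CPM in cells (-2.05 ± 0.51, edgeR adjusted p = 0.0227), a call that held only without sEV replicate 1 when single libraries were left out. C1qa, a chain of complement C1q, averaged 261 ± 123 CPM in sEVs and 1305 ± 213 CPM in cells. The exception was Aif1, the cytosolic calcium-binding protein IBA1 that is widely used to stain microglia. It had 454, 478 and 400.2 CPM in sEVs, against 140.1, 107 and 136 CPM in cells, and was higher in 3 of 3 sEV libraries (1.80 ± 0.35, edgeR adjusted p = 0.0101). The Aif1 call was lost without cell replicate 2. The lower calls in this list numbered 8, 7 and 8 without cell replicates 1, 2 and 3, 8 without sEV replicate 3 and 7 without TMM.

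In the list for disease-associated microglia, a state described around amyloid plaques, 11 of 26 tested genes were lower and none higher. Differences were negative in 20 and positive in 6. Without TMM 2 genes were higher and 10 lower, and the 6 microglia libraries alone gave 3 higher and 15 lower. Spp1 (osteopontin, a secreted matrix protein) had 3129, 2549 and 3995 CPM in sEVs, against 17972, 22655 and 31886 CPM in cells. Its log2 difference was -2.91 ± 0.75 (edgeR adjusted p = 0.0188), and the call was lost without cell replicate 3 or sEV replicates 1 or 2. Gpnmb, a lysosomal glycoprotein, had 511, 403 and 722 CPM in sEVs, against 16310.3, 15940.0 and 14805 CPM in cells (-4.84 ± 0.66, edgeR adjusted p = 1.54e-04). Apoe, the lipid carrier apolipoprotein E, averaged 5197 ± 2419 CPM in sEVs and 31067 ± 629.6 CPM in cells (-2.58 ± 0.39, edgeR adjusted p = 3.82e-04), and its sEV libraries spread from 3695 to 7987 CPM. Among secreted metalloproteinases, Mmp12, the macrophage elastase, averaged 1255 ± 405 CPM in sEVs and 11894 ± 1287 CPM in cells and Mmp13, a collagenase, 2054 ± 411 CPM in sEVs and 11496 ± 979 CPM in cells, with log2 differences of -3.24 and -2.48 (edgeR adjusted p = 0.00196 and 0.0055). Of 23 tested genes of cholesterol synthesis and lipid handling 9 were lower and none higher. In the list of EV biogenesis and surface proteins 10 of 28 tested genes were lower and none was higher. Differences in that list were negative in 21 and positive in 6, up to 6.77, and without TMM 2 genes were higher and 7 lower. The mRNAs of Cd9, Cd81 and Cd63, tetraspanin proteins commonly used to identify EVs, had log2 differences of -3.03, -2.63 and -1.61. These are mRNA levels, and protein was not measured here.

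Cytokine and chemokine mRNAs are also translated at the ER, and few of them were called in the main fit. Differences were negative in 9 and positive in 6 of the chemokine genes tested. They were negative in 13 and positive in 3 of the interleukin, TNF and antagonist genes tested. Among 15 tested chemokine genes 1 was lower and none higher (median -0.26, and 0.35 without TMM), and among 16 interleukin, TNF and antagonist genes 1 was lower and none higher (median -1.09). Ccl3, a chemokine for monocytes, had 16675, 17359.7 and 15045 CPM in sEVs, against 9672, 10788 and 10226 CPM in cells. Every sEV library was above every cell library, yet the gene was not called (log2 0.68 ± 0.58, edgeR adjusted p = 0.549). Ccl4, a chemokine related to it, had 13266, 11462 and 10391 CPM in sEVs, against 14231, 13789 and 14006 CPM in cells (-0.26 ± 0.58, edgeR adjusted p = 0.947). Il12b, the p40 subunit of interleukins 12 and 23, had 6392, 12623 and 12858 CPM in sEVs, against 14589.6, 24392 and 21083 CPM in cells, a wide scatter in both groups (edgeR adjusted p = 0.392). Cd69, a surface marker of activation, averaged 7786 ± 1801 CPM in sEVs and 21936 ± 2971 CPM in cells and was not called (edgeR adjusted p = 0.182). The 2 called genes of these lists were Cxcl2, a chemokine for neutrophils, with 409.7 ± 56.6 CPM in sEVs and 1180.0 ± 92.2 CPM in cells, and Tnf, with 1494 ± 179.9 CPM in sEVs and 5791 ± 363 CPM in cells (log2 -1.53 and -1.95; edgeR adjusted p = 0.006 and 0.00201). A p that misses the threshold does not show equal levels, and a fit of the 6 microglia libraries alone called 4 chemokine genes higher and 2 lower. In the interleukin, TNF and antagonist list that fit called 2 genes higher and 4 lower. DESeq2's Wald test called 1 chemokine gene higher and 3 lower, and 4 genes of the other list lower and 0 higher. Interferon-stimulated genes gave 4 lower (10.3%) and none higher of 39 tested, close to the 9.2% lower over all tested genes. Differences were negative in 28 and positive in 11. The 6 microglia libraries alone gave 7 lower and 3 higher, and DESeq2's Wald test 10 lower and 1 higher. The most negative difference was that of Rsad2, the antiviral enzyme viperin. Rsad2 had 46.0, 9.93 and 8.37 CPM in sEVs, against 1786, 2061 and 1717 CPM in cells (-6.42 ± 0.62, edgeR adjusted p = 2.53e-04). The median log2 difference of the list was -0.53 with TMM and 0.04 without it, and 2 genes were called lower without cell replicate 3 and likewise without sEV replicate 2.

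Ribosomal protein genes had higher calls and no lower ones. Of 45 tested genes of the large subunit 15 were higher and none lower (median 0.78, and 1.41 without TMM), and of 31 tested genes of the small subunit 8 were higher and none lower (median 0.99). Without TMM 25 genes of the large and 22 of the small subunit were higher. Rpl35, a protein near the exit of the ribosomal tunnel, had 1087, 786 and 606 CPM in sEVs, against 212, 145 and 189 CPM in cells. The log2 difference was 2.18 ± 0.33 (edgeR adjusted p = 3.49e-04), with no overlap. Rps6 and Rack1, a scaffold on the small subunit, differed less (0.80 and 1.04), and both lost their call without any 1 of the cell replicates or sEV replicate 1, Rps6 also without sEV replicate 2. Rpl37a had only 26, 15 and 15 reads in sEVs and 0, 2 and 0 reads in cells and kept its call in the 6 fits that left out 1 library. Ribosomal protein genes have many processed pseudogenes, and reads may be split between copies. Calls numbered 4, 6 and 6 in the large list without cell replicates 2 and 3 and sEV replicate 1, and 5, 2, 2 and 3 in the small list without cell replicates 1, 2 and 3 and sEV replicate 1.

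Many ribosomal protein mRNAs start with a C followed by a run of pyrimidines, the 5′ terminal oligopyrimidine tract through which their translation is regulated. A start of C with 4 further C or T bases was found at the annotated start of 13 of 57 ribosomal genes in the RefSeq promoter table (22.8%). Of the 23 ribosomal genes called higher 15 had a promoter there, and 3 of these 15 had such a start (20%). The share was 2.96% over all tested genes with a promoter. Windows of 15 bases on either side of the start are shown for those 3 (RefSeq, build GRCm38.p6), with the pyrimidine run in capitals. They belong to the promoters at chr2:39005082-39005381 (-, Rpl35), chr11:48800110-48800409 (+, Rack1) and chr4:86857318-86857617 (-, Rps6).
Rpl35: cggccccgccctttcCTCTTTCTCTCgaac
Rack1: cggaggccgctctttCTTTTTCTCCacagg
Rps6: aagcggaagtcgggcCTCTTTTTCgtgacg
Their log2 differences were 2.18, 1.04 and 0.80. Ribosomal genes with a tract that were not called ranged from -2.24 (Fau) to 2.71 (Rps21). A tract was thus present at larger, smaller and negative differences.

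Nuclear-encoded genes of the respiratory chain had mostly higher calls. Of 37 tested genes of complex I 9 were higher and none lower (median 0.72), and of 42 of complexes II to V 11 were higher and 1 lower (median 0.69). Ndufa2, a complex I subunit, had 156, 99.3 and 90.4 CPM in sEVs, against 13.04, 8.68 and 25.7 CPM in cells (2.82 ± 0.50, edgeR adjusted p = 0.00147). Cycs, cytochrome c, averaged 1551 ± 281 CPM in sEVs and 753 ± 75.1 CPM in cells, and Timm17a, an importer of the inner mitochondrial membrane, 346 ± 22.2 CPM in sEVs and 131 ± 20.7 CPM in cells. The numbers called higher changed with single libraries: refits called 2, 4, 3 and 5 complex I genes without cell replicates 1, 2 and 3 and sEV replicate 1, and 4, 2, 5, 6 and 5 genes of the other complexes without those 4 libraries and sEV replicate 2. Without TMM 21 genes of complex I and 19 of the other complexes were higher. Genes encoded by mitochondrial DNA mostly went the other way, with 4 of 9 tested lower and none higher. Their log2 differences were negative in 7 and positive in 2, up to 3.84. DESeq2's Wald test called 5 of them lower and 1 higher. The cytochrome oxidase subunit mt-Co1 had 191, 520.1 and 427 CPM in sEVs, against 4921, 5537 and 4986 CPM in cells (-3.76 ± 0.88, edgeR adjusted p = 0.00905), and mitochondrially encoded reads made up 0.0474% to 0.179% of sEV libraries and 0.818% to 1.09% of cell libraries.

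Among the other higher genes named by rule, Tmsb4x, the actin-sequestering peptide thymosin beta 4, had 9828, 9796 and 8025 CPM in sEVs, against 3451, 3277 and 3495 CPM in cells. The log2 difference was 1.44 ± 0.31 (edgeR adjusted p = 0.00565), with all sEV libraries above all cell libraries. Pfn1 (profilin, another actin monomer binder) averaged 2692 ± 233 CPM in sEVs and 1512 ± 81.1 CPM in cells (0.83 ± 0.22, edgeR adjusted p = 0.0175). Tma7, a small protein associated with translation in yeast, had 399, 262 and 214 CPM in sEVs, against 55.4, 55.0 and 95.8 CPM in cells. It had the smallest adjusted p among the higher genes named by rule (2.37e-04, edgeR; 2.07 ± 0.30). Selenow, a selenoprotein, averaged 211 ± 38.3 CPM in sEVs and 65.4 ± 5.67 CPM in cells, Hypk, which binds the N-terminal acetyltransferase, 126 ± 16.6 CPM in sEVs and 29.1 ± 9.47 CPM in cells, and the long non-coding RNA Oip5os1 130.1 ± 45.05 CPM in sEVs and 25.1 ± 4.56 CPM in cells. Histone variant genes H3f3b and H2az1 averaged 7685 ± 2294 CPM in sEVs and 3937 ± 445 CPM in cells and 921 ± 70.2 CPM in sEVs and 549 ± 9.88 CPM in cells, with log2 differences of 0.96 and 0.75 (edgeR adjusted p = 0.0345 and 0.0269). Of 35 proteasome genes 4 were higher and 2 lower, against 14 and 0 without TMM and 10 and 0 in the 6 microglia libraries alone, and refits that left out 1 library called at most 1 higher. The higher ones included the catalytic subunit gene Psmb6 (0.92) and the activator gene Psme2 (0.95). Prr13, a proline-rich protein, Rap1b, a small GTPase, Polr2g, a subunit of RNA polymerase II, and Prkcd, protein kinase C delta, had log2 differences of 1.00, 1.30, 0.94 and 2.12. The Prkcd values were 500.3, 973 and 1636 CPM in sEVs, a 3-fold spread, against 254, 240.2 and 219.6 CPM in cells. Calls for Psme2, H3f3b, H2az1, Pfn1, Cycs, Psmb6, Rap1b, Polr2g and Prkcd were lost in at least 1 of the fits that left out 1 library.

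Ferritin light chain, Ftl1, took the largest share of reads in every sEV library, 4.47% to 6.94%. It had 61239.9, 46805 and 49082 CPM in sEVs, against 30613, 25888 and 26258 CPM in cells, and heavy chain Fth1 had 28670.1, 22424 and 23019.9 CPM in sEVs, against 16212, 14331 and 14121 CPM in cells. Neither overlapped and neither was called (log2 0.92 and 0.73; edgeR adjusted p = 0.0951 and 0.0758). Among the 20 genes with most reads in each group 8 were shared.

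**Figure D2:**
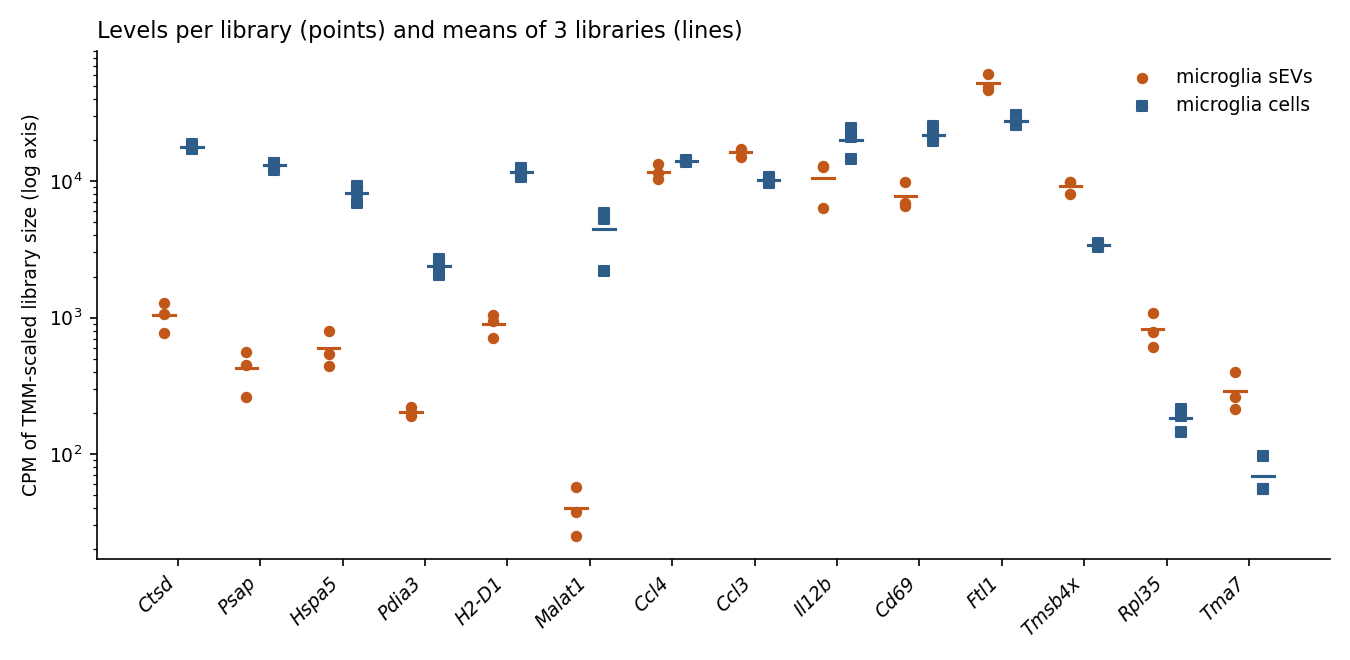
CPM of TMM-scaled library size (log axis) of 14 genes in microglia sEV libraries (orange circles, left) and microglia cell libraries (blue squares, right), with lines at the means of 3 libraries. The ER, lysosomal and class I genes and Malat1 lie lower in sEVs, Ccl4 lies at 11707 ± 1453 CPM in sEVs and 14009 ± 221 CPM in cells, and Tmsb4x, Rpl35 and Tma7 lie higher in sEVs.

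Malat1, a long non-coding RNA held in nuclear speckles, had 57.0, 37.7 and 25.1 CPM in sEVs, against 5830.0, 5323 and 2187 CPM in cells. Its log2 difference was -6.79 ± 0.60 (edgeR adjusted p = 3.48e-06), with no overlap. It was 57.0 CPM at most in sEVs and 2187 CPM at least in cells. Malat1 was the only gene called of 8 tested in a list of nuclear-retained and cytoplasmic long non-coding RNAs. In that list 5 differences were positive and 2 negative, with a median of 0.57. In the immediate early list 3 of 19 tested genes were lower, Egr1, Junb and Jun, and 1 was higher, Jund, which had 11, 30 and 17 reads in sEVs and 0 in the 3 cell libraries and lost its call without cell replicates 2 or 3. Actb, beta-actin, had 12.9, 3.97 and 109 CPM in sEVs, against 8789, 7323 and 8483 CPM in cells (-7.58 ± 1.48, edgeR adjusted p = 0.00345). Its counts were erratic elsewhere, with 43, 1161 and 69 reads in the 3 astrocyte cell libraries, and its label shares near-identical sequence with other actins, so the Actb value is uncertain.

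Reads of markers of other cell types were summed per library. Over 20 astrocyte markers, sums ran from 206.5 to 252.2 RPM in sEVs and from 111 to 348 in cells, against 45057 to 53270 in astrocyte cells, and 3 were lower (Clu, Atp1b2 and Gja1) and none higher of 18 tested. The Gja1 call was lost without any 1 of cell replicates 2 and 3 and sEV replicates 2 and 3. Over 22 neuron markers, sums ran from 14.6 to 84.4 RPM in sEVs and from 0 to 27.8 in cells. Stmn3 and Gap43 were the 2 called higher, from 0, 6 and 5 and 0, 7 and 21 reads in the sEV libraries and 0 in the cell libraries, and neither call held without any 1 of the cell replicates or sEV replicate 3. No oligodendrocyte gene was called of 10 tested, sums being 22.8 to 99.7 RPM in sEVs and 95.8 to 101 in cells. Fibroblast markers summed to at most 9.20 RPM in sEVs and 236 in cells, and ependymal markers to 3.79 RPM in sEVs and 144 in cells. Markers of other blood cells, none of which passed the filter, summed to 20.9 to 79.3 RPM in sEVs and 9.21 to 17.2 RPM in cells, with no overlap. The part of these transcripts in the differences above was not tested, and in bulk libraries fewer cells of a type and less RNA per cell cannot be told apart.

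At the level of isoforms 127 of 9370 tested were higher (1.36%) and 750 lower (8%). Of the lower isoforms 546 belonged to genes called lower, 203 to genes not called and 1 to a gene called higher. Isoforms named by rule were mostly the main isoform of a gene described above (Selenow, Tma7, Rpl35 and Hypk higher; Hspa5, Pdia6, Ctsd, Pdia3 and Malat1 lower). To these were added a reference match of Pfdn1, a subunit of the cytosolic chaperone prefoldin, with 93.8, 143 and 112 CPM in sEVs, against 44.3, 39.9 and 44.3 CPM in cells, and Calr, the ER chaperone calreticulin, whose isoform had 99.95, 177 and 145 CPM in sEVs, against 979, 1045 and 1113 CPM in cells. All 12 isoforms named by rule kept their call when any 1 of the 6 libraries was left out, while those refits called between 28 and 80 isoforms higher and between 289 and 580 lower in all. Of 234 tested isoforms that retain an intron 54 were lower (23.1%) and none higher.

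The structure of the reads differed as well, each share given per library. Full-splice matches made up 88.7%, 83.2% and 86.8% of reads in sEVs, against 91.9%, 91.5% and 91.1% in cells. Fragments of the 3′ end took 4.10%, 6.06% and 3.85% in sEVs, against 1.63%, 1.58% and 1.58% in cells. Intron-retaining isoforms took 0.735%, 0.612% and 0.801% in sEVs, against 1.39%, 1.63% and 1.59% in cells. Groups did not overlap in any of these 3 shares, yet 3 libraries against 3 cannot give an exact permutation p under 0.1, and each had that p (two-sided; 0.13 after adjustment over 13 categories). A 3′ fragment lacks the 5′ end of its message, as broken RNA or incomplete cDNA would, and the part of this share in the differences above was not tested. Antisense isoforms took 2.15% in sEV replicate 2 and 0.237% and 0.320% in the other sEV libraries, mostly through 1 unannotated locus opposite Cep85 with 10406 reads in that library and 508 and 1126 in the other sEV libraries.

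**Figure D3:**
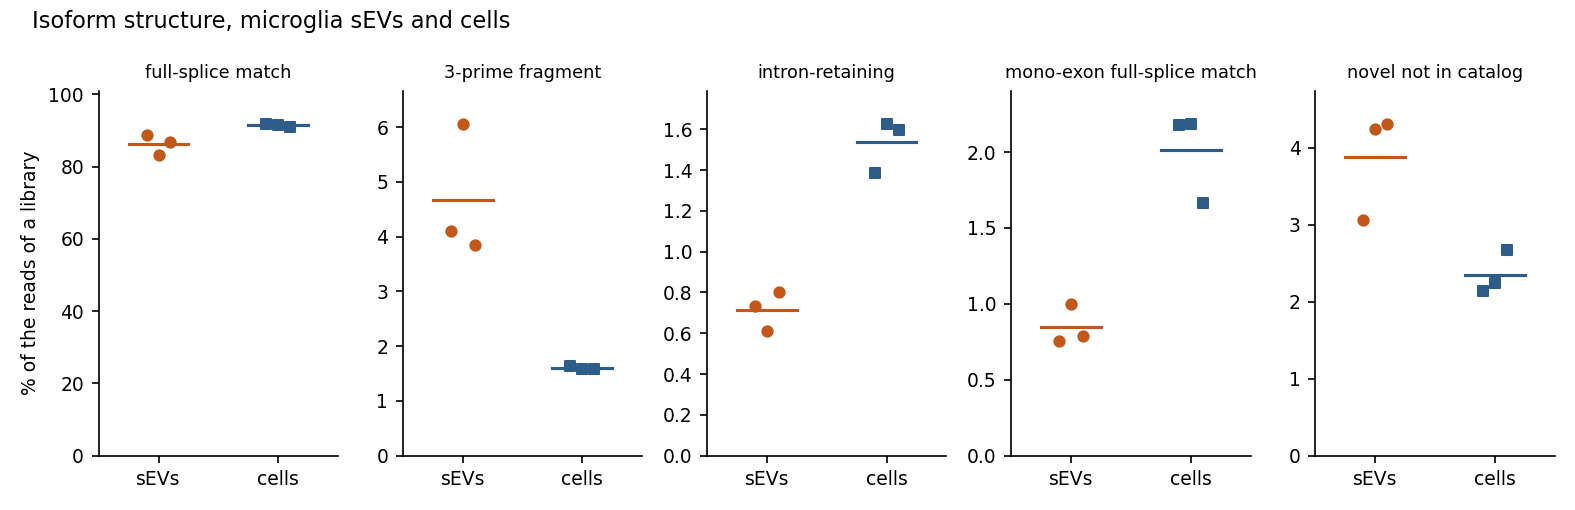
Share of reads (%) per library in 5 structural categories, microglia sEVs (orange circles, left) and cells (blue squares, right), with lines at the means. sEVs average 86.3% against 91.5% for full-splice matches, 4.67% against 1.598% for 3′ fragments and 0.716% against 1.54% for intron-retaining isoforms.

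Isoform usage asks whether an isoform changed relative to the other isoforms of its gene. Of 1752 genes with 2 or more tested isoforms 42 were called (2.4%; edgeR diffSpliceDGE, Simes p adjusted over genes). Of 4433 isoforms 54 were relatively lower (1.22%) and 5 relatively higher (0.113%) in sEVs, and among the 221 that retain an intron 21 were relatively lower (9.5%) and none higher. The isoform with the smallest p was relatively lower in 39 of the 42 genes, had 0 reads in sEVs in 34 and retained an intron in 15. Refits that left out 1 of the 6 libraries called 8 to 13 genes in all. Of 426 genes with at least 100 reads in each of the 6 libraries, 176 had an intron-retaining share of 1% or more in any library. In these 176 the mean share was lower in sEVs in 155 and higher in 20. The groups did not overlap in 76 that were lower and 2 that were higher. A gene could pass this filter through its cell libraries alone. The filter itself therefore favours lower sEV shares, and these counts were not tested.

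In Ccl4, whose total was not called, the usage of isoforms differed. An isoform with a retained intron had 0 reads in each sEV library and 259, 279 and 316 reads in the cell libraries, 5.93%, 5.86% and 5.27% of the reads of Ccl4 there. The reference isoform had 7149, 5690 and 6167 reads in sEVs, against 4074, 4424 and 5649 in cells. With a floor of 3 reads per library, a count of 0 allows a share of up to 0.0416%, 0.0520% and 0.0483% in the 3 sEV libraries. Il27, a cytokine subunit, had 1 intron-retaining isoform with 0 reads in sEVs and 104, 101 and 140 reads in cells (2.89%, 2.38% and 2.84% of the gene). Another Il27 isoform that retains an intron was not called, with 4.59%, 4.30% and 2.97% of the gene's reads in sEVs, against 2.97%, 2.59% and 2.73% in cells. In Srsf5, a splicing factor, an intron-retaining isoform had 0, 0 and 3 reads in sEVs, against 50, 46 and 72 in cells, 36.8%, 24.9% and 33.5% of its reads there. Among the 8 genes named for usage, 4 led with an isoform that has an alternative 3′ end. Rsrp1, an arginine and serine-rich protein, had one at 0%, 0% and 1.55% of its reads in sEVs, against 76.0%, 67.6% and 66.6% in cells, and its reference isoform at 81.1%, 80.4% and 82.9% in sEVs, against 8.65%, 3.98% and 16.6% in cells. Ccl5, a chemokine for T cells, had one at 0%, 0.279% and 0.152% in sEVs, against 28.1%, 25.1% and 26.4% in cells. Gbp9, an interferon-inducible GTPase, and Ccnl2, a cyclin of nuclear speckles, had such isoforms at 0% in all sEV libraries, against means of 31.6% and 31.2% in cells. An isoform of Ifit3, an antiviral interferon-stimulated gene, with an unannotated exon had 0 reads in sEVs and 61, 66 and 63 in cells. In each of the 8 genes the isoform with the smallest p was relatively lower in sEVs. Calls for Ccl4, Rsrp1, Gbp9 and Il27 held whichever of the 6 libraries was left out. Ccl5 lost its call without sEV replicate 3, Srsf5 without sEV replicates 1 or 2, Ccnl2 without sEV replicates 1 or 3, and Ifit3 without cell replicates 1 or 3 or sEV replicates 1 or 3.

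**Figure D4:**
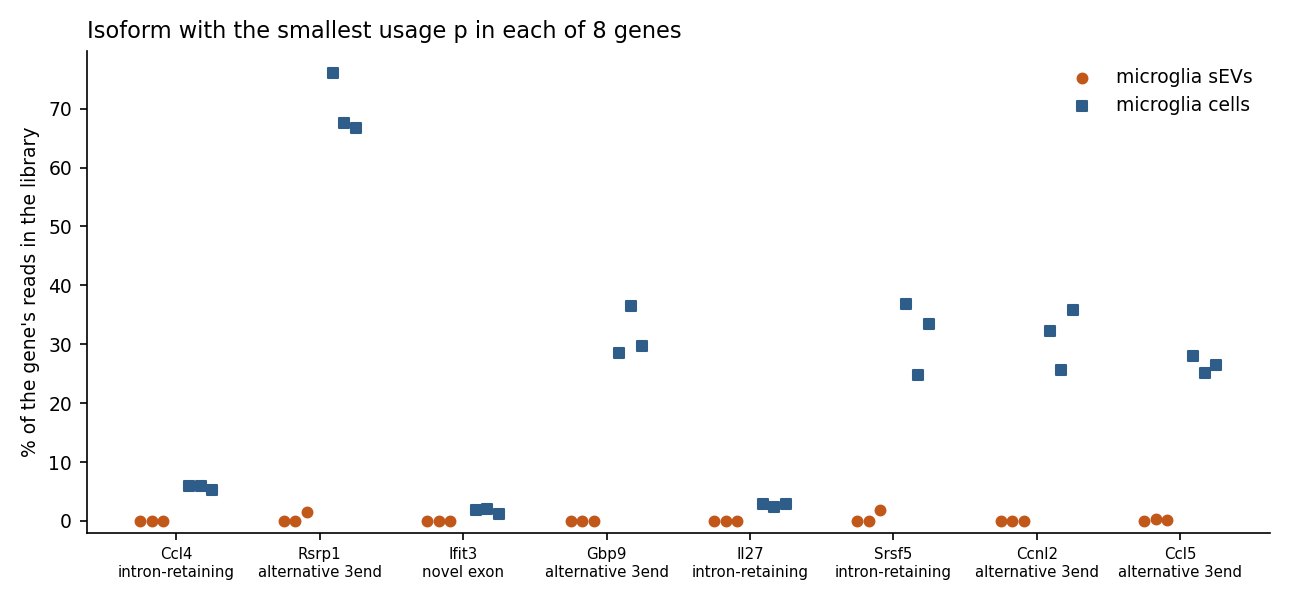
Share of a gene's reads (%) taken by the isoform with the smallest usage p in 8 genes, per library, in microglia sEVs (orange circles, left) and cells (blue squares, right). The sEV values lie between 0% and 1.94%, and the cell values reach 76.0% for Rsrp1.

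A test of whether microglia differed from the other cultures compared the sEV to cell difference in microglia with the mean of the same difference in astrocytes and neurons (edgeR interaction contrast). It called 123 genes with a higher difference in microglia (1.5%) and 204 with a lower one (2.49%). Among ribosomal protein genes 15 of 45 in the large list and 11 of 31 in the small list were lower and 0 and 1 higher, with median interactions of -1.21 and -1.13. Without TMM these lists gave 5 and 4 lower calls and medians of -0.42 and -0.34, where the median over all genes was 0.72. The lower calls in the large list numbered 9 without cell replicate 1. The list medians for the large subunit were a log2 difference of 0.78 in microglia, 1.31 in astrocytes and 2.78 in neurons. Rps2, a small-subunit protein, had 0.34 in microglia, 2.94 in astrocytes and 4.18 in neurons, an interaction of -3.22 ± 0.35 (edgeR adjusted p = 6.18e-05). Ftl1 differed by 0.92 in microglia against 5.60 and 5.18 in astrocytes and neurons, an interaction of -4.47 ± 0.45 (edgeR adjusted p = 3.61e-05). Lysosomal genes gave 2 higher and 3 lower of 43, and their median differences were -3.26 in microglia, -3.81 in astrocytes and -3.29 in neurons. Spcs2, a subunit of the ER signal peptidase complex, fell less in microglia (-0.89) than in astrocytes (-3.18) and neurons (-3.16), with an interaction of 2.29 ± 0.27 (edgeR adjusted p = 1.27e-04). Ndfip1, an adaptor of ubiquitin ligases, did likewise (3.01 ± 0.41, edgeR adjusted p = 3.93e-04). Malat1 had the more negative difference in microglia (-2.99 ± 0.60, edgeR adjusted p = 0.00921). Genes with no reads in one of the other cultures, Ccl3 and Ccl4 among them, give no usable estimate here. Without TMM the interaction gave 624 higher and 116 lower calls, and without cell replicates 1, 2 or 3 between 44 and 60 higher and 118 to 132 lower. The numbers of calls thus changed with scaling and in refits without a cell library, which also tested more genes.

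**Figure D5:**
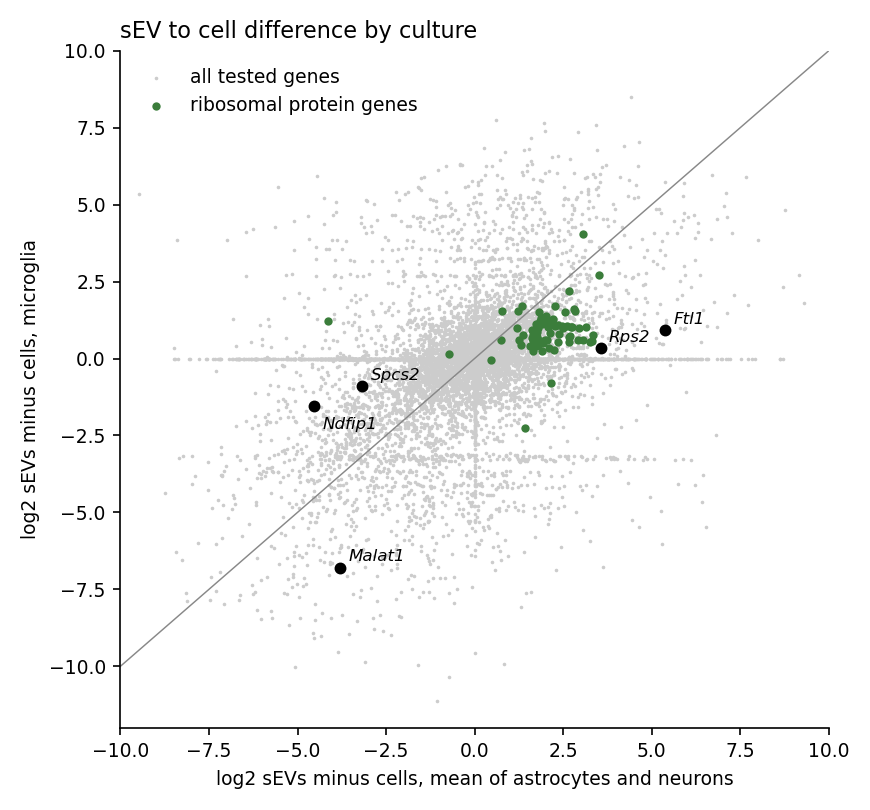
Log2 difference of sEVs minus cells in microglia (vertical axis) against the mean of the same difference in astrocytes and neurons (horizontal axis). Grey points are all tested genes, green points ribosomal protein genes and black points 5 named genes, and the line marks equality (2 genes lie outside the axes). Rps2 and Ftl1 lie below the line, with interactions of -3.22 and -4.47.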

How the data were processed

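Polyadenylated RNA of 18 primary mouse culture libraries was reverse transcribed and amplified with a low-input kit, reamplified for 10 cycles and sequenced on a PacBio Sequel II with 24 h movies, per the labels' protocols. Reads were placed on GRCm39, and minimap2 is named, per the submitters' processing notes. The authors deposited whole-number read counts per isoform with a structural category and a gene label for each. Further settings were not given in the sources used here.

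Counts were summed per gene label. Labels included 1228 unannotated loci, 661 read-throughs and 2132 predicted genes or pseudogenes. Libraries were mapped to groups by their titles. Genes and isoforms that passed edgeR's filterByExpr were fitted once over all 18 libraries with 1 mean per group (edgeR 4.0.16, TMM, quasi-likelihood F test, Benjamini-Hochberg, threshold 0.05; R 4.3.3, limma 3.58.1). Standard errors are the absolute log2 difference over the square root of F. The interaction took the microglia difference minus the mean of the astrocyte and neuron differences. Usage was tested with diffSpliceDGE. Structural shares were compared by exact permutation tests, two-sided.

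Genes named by rule were those with an adjusted p under 0.05, no overlap between groups and a mean of at least 20 reads in the higher group, taking the 12 with the highest mean CPM and the 8 with the smallest adjusted p in each direction. For isoforms 6 were taken in each direction, for usage 8 genes, and for the interaction 5 in each direction. Members of the lists served as further examples. A gene that the rule names is not reported here. The comparison, members and lists were chosen with earlier results of these data known.

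On simulated counts 65% of 4-fold and 89% of 16-fold changed genes were recovered among 7515 genes, 27% and 62% of isoforms among 7787, and 35% of 64-fold usage changes among 1295 genes. Changes were put only into genes and isoforms with more reads in microglia, so these rates do not cover those with few reads. False calls were 7 of 161 for genes, 1 of 90 for isoforms and 1 of 36 for usage. DESeq2 1.42.0, no TMM, DESeq2 size factors, other filters, the 6 libraries alone, a replicate block and leaving out each library were alternatives. Same-numbered sEV and cell libraries deviated together only weakly (r = 0.0415, -0.0211 and 0.0794). Numbers were not taken as pairs in the main fit, though so few libraries cannot exclude pairing. Protein sequences were not used here. Gene labels matched RefSeq by symbol for 14896 and by synonym for 25.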

Additional observations from a re-analysis of the deposited data

Results flagged for a closer look

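These genes had an sEV to cell difference in microglia that departed from the mean of the differences in astrocytes and neurons in edgeR's interaction test. The interaction is a log2 difference, positive where microglia had the higher value. Among genes higher in microglia, Spcs2, Ndfip1 and Pdia3 were lower in sEVs of every culture and less so in microglia, with interactions of 2.29, 3.01 and 1.28. Tmem106b, a lysosomal membrane protein, was at -0.40 in microglia and at -5.97 and -8.64 in astrocytes and neurons (interaction 6.90). It had 16, 15 and 7 reads in microglia sEVs and 9, 10 and 15 in microglia cells. Its sEV means were 1.46 CPM in astrocytes and 0 CPM in neurons, so the size of this interaction is uncertain. Sparcl1, an astrocyte-secreted matrix protein, and Gpm6a, a neuronal membrane glycoprotein, had interactions of 6.16 and 8.61. Gpm6a rested on 0, 26 and 45 reads in microglia sEVs and 0, 2 and 0 reads in microglia cells, and Sparcl1 on 3, 7 and 16 and 3, 0 and 3 reads.

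Among genes lower in microglia, Prr13, Rps2 and Ftl1 had positive differences in all 3 cultures and smaller ones in microglia, with interactions of -1.14, -3.22 and -4.47. Malat1 was negative in all 3 and most so in microglia (-2.99). Cdip1, AI506816 and Stradb were at -6.42, -8.08 and -6.02 in microglia and positive in both other cultures, with interactions of -7.36, -9.41 and -11.31. The astrocyte differences of Cdip1 and AI506816 were small and not called (0.47 and 0.57, edgeR adjusted p = 0.24 and 0.328). Stradb had 0 reads in microglia sEVs and 5, 6 and 4 reads in microglia cells, AI506816 0 reads and 21, 17 and 26 reads, and Cdip1 0 reads and 7, 5 and 8 reads. With a floor of 3 reads per sEV library, Cdip1, AI506816 and Stradb were at least 3.39-, 10.8- and 2.61-fold lower in microglia sEVs. The size of their microglia differences and interactions beyond that is uncertain.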

How the results depend on the processing

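None of the 970 gene calls became a call in the opposite direction under the alternatives. Genes that lost their call or were no longer tested did not count as opposite. In the 6 libraries alone, 159 of the 217 higher and 485 of the 753 lower genes kept their call. None of the 12 named isoforms or 10 named interactions changed sign under the alternatives run for them. Against 217 genes higher, 687 were called without TMM, 395 by DESeq2's Wald test, 415 in the 6 libraries alone and 113 with the replicate block, and against 753 lower the block gave 467. Against 123 higher interactions, counts were 624 without TMM, 328 by DESeq2, 256 with no filter, 186 with a stricter filter and 49 with the block; against 204 lower, 116 without TMM, 474 by DESeq2 and 103 with the block. Isoforms called higher (127) became 458 without TMM, 267 by DESeq2, 79 with no filter, 255 in the 6 libraries and 9 with the block, and those called lower (750) became 98 with the block. Usage calls (42) became 69 in the 6 libraries and 8 with the block. Members of all lists called higher (65) became 158 without TMM, 101 by DESeq2, 111 in the 6 libraries and 38 with the block. The difference in 3′ fragments (3.08 percentage points) was 7.13 over isoforms detected, and that in intron-retaining reads (-0.820) was -0.654 without isoforms seen in 1 library and -5.82 over isoforms detected. Whether same-numbered libraries are pairs is not known from these data, and the block spends degrees of freedom on the numbers.

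Leaving out 1 library gave 79 to 208 genes higher and 488 to 794 lower, 44 to 155 and 118 to 228 interactions, 28 to 80 and 289 to 580 isoforms, 8 to 13 usage calls, and 19 to 56 and 127 to 166 list members. Structural differences ran from -6.45 to -3.69 points for full-splice matches, 2.38 to 3.49 for 3′ fragments and -0.895 to -0.768 for intron-retaining reads. Of 36 genes named by rule, 3 to 12 lost their call when 1 library was left out, 5 with no filter, 5 with the block and 2 without TMM; all 10 named interactions held. Protein feature shares and their alternatives were not run, for want of protein sequences used here. Depth limits low genes: 3 reads correspond to 5.02 to 9.78 CPM in these libraries, and the 3 libraries per group limit the precision.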
